A study of Mus musculus with 7 samples.

Results

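The genes described here are 32 enzymes and carriers that move long fatty acid chains into mitochondria, shorten them to acetyl-CoA there, and use ketone bodies as fuel. They were taken by gene name from a table of 22880 genes measured by RNA-seq in the optic nerve of mice at postnatal day 14 (P14), and all 32 were found and tested among 13866 genes with enough signal. The 4 control mice carried FASN lox/lox and no Cre. The 3 mutant mice carried olig2cre and FASN lox/lox, so that Cre made under the Olig2 promoter deletes part of the gene for fatty acid synthase (Fasn), the enzyme that builds fatty acids from malonyl-CoA. Both nerves of a mouse made 1 sample, so n counts mice. The lox allele came from 129X1/SvJ and was crossed with 129X1/SvJ, C57BL/6 and DBA mice, then bred back to C57Bl/6 for at least 3 generations, and the Cre line was kept on C57Bl/6. Olig2 is active throughout the oligodendrocyte lineage and also in some other neural progenitors, and the nerve holds astrocytes, microglia, vessel cells and meningeal fibroblasts in addition to that lineage.

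In mitochondrial fatty acid oxidation, or β-oxidation, the chain is first bound to carnitine, carried across the inner membrane and bound again to CoA. A cycle of dehydrogenation, hydration, a second dehydrogenation and thiolysis then releases acetyl-CoA, and electrons from the first step pass through the electron transfer flavoprotein to the respiratory chain. Malonyl-CoA, which Fasn uses as its substrate, is also the known inhibitor of the first carnitine step. Ketone bodies made in liver from fatty acids are a major fuel and lipid precursor of the suckling rodent brain, and they enter the same acetyl-CoA pool by a short route of 3 enzymes.

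Fasn itself was the check of the genotype. Its level was 210.3, 169, 211 and 228 FPKM (reads scaled by the length of the gene model and by library size) in control samples 1 to 4, and 69.3, 50.5 and 49.0 FPKM in mutant samples 1 to 3. All mutants lay below all controls, and the mutant mean was 27.5% of the control mean (log2 fold change -1.86, standard error (SE) 0.138, adjusted p = 0.00312). The value counts reads over the whole gene model, so transcripts without the floxed part count too. Depth was estimated by taking the most frequent low value of the deposited normalized counts as 1 read. It was about 31300000 to 43500000 reads in controls and 27500000 to 35800000 in mutants. Markers of mature oligodendrocytes summed to between 56850 and 64620 FPKM in controls and between 41400 and 53030 in mutants, and 2 of 10 were called lower. Of 6 progenitor markers 3 were called lower (Cspg4, Gpr17 and Neu4), while Pdgfra and Ptprz1 overlapped between the groups. The paper counts Gpr17 among transcripts enriched in myelin-forming oligodendrocytes. Of 10 astrocyte markers 4 were called higher. Summed astrocyte markers ranged from 3455 to 3880 FPKM in controls and from 4426 to 5314 in mutants. Summed markers of endothelial cells ranged from 158.8 to 186.8 FPKM in controls and from 194.0 to 218.8 in mutants, with 0 of 8 called. In bulk tissue, fewer cells of a type and less RNA per cell cannot be told apart, and the part of these marker shifts in the results below was not tested. Mutant sample 2 stood apart by skeletal muscle RNA. The 12 muscle markers summed to 70.5 FPKM there and to between 2.66 and 5.96 in the other samples, although 6 of the 12 were under 0.5 FPKM everywhere.

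Of the 32 genes, 1 rose and 1 fell in the mutants. The gene that rose was Acadsb, an acyl-CoA dehydrogenase for short branched chains, and the gene that fell was Bdh1, the enzyme that opens ketone body use. Among all 13866 tested genes, 175 were called higher (1.26%) and 188 lower (1.36%) at an adjusted p under 0.05, 2.62% in either direction. The other 30 genes did not pass. Of all 32, 21 had a log2 fold change within 0.1 of 0. The median was 0.06 and the range was -0.29 to 0.55, beside a median of 0.05 over all tested genes. With FPKM, 24 of the 32 values lay above 0, but with the deposited normalized counts 14 did and with quantile normalization 18 did. The sign of the small differences thus depends on the scaling. The median over all tested genes moved too, to -0.02 under either of these scalings.

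**Figure D1:**
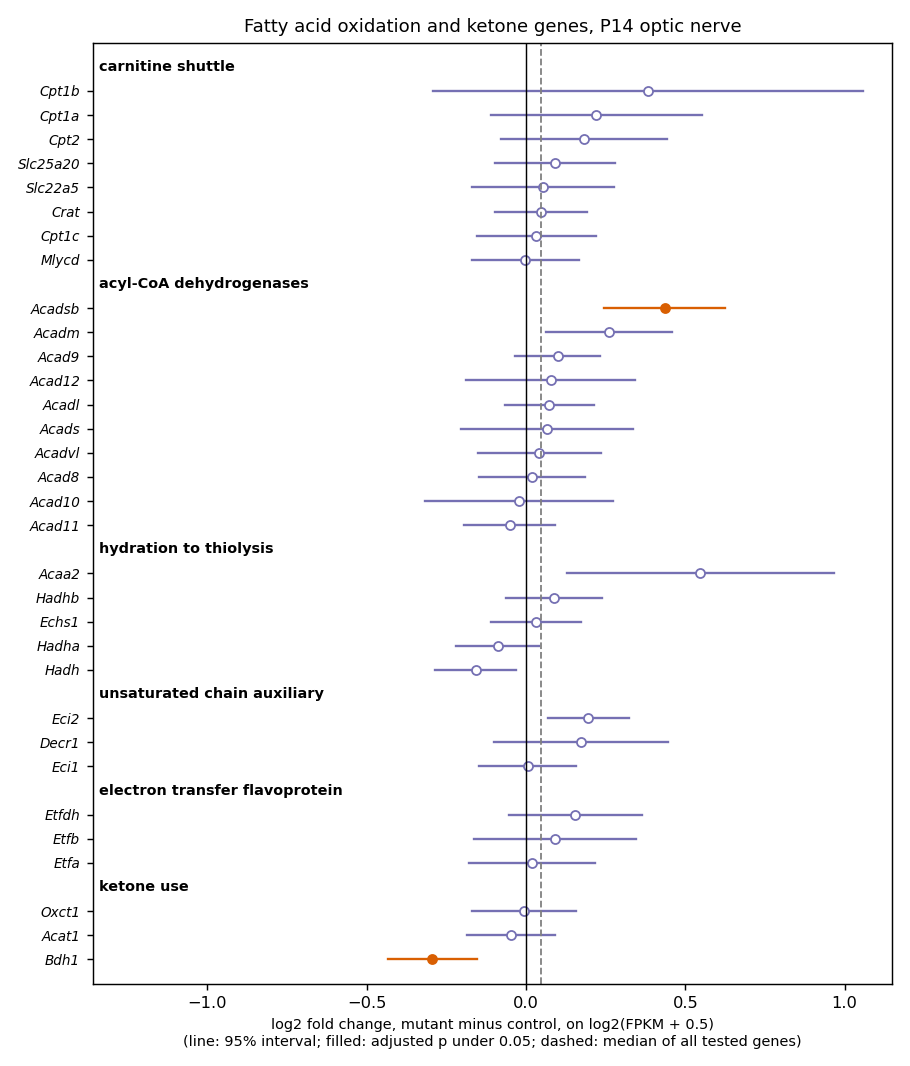
Log2 fold change (mutant minus control, on log2(FPKM + 0.5)) of the 32 genes, grouped by role, with 95% intervals. Filled points passed an adjusted p of 0.05 (Acadsb at 0.43 and Bdh1 at -0.29), the dashed line is the median of all tested genes (0.05), and 12 of the open points change side of 0 under another scaling.

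Separation of the groups gave a similar picture. The lowest mutant lay above the highest control for 3 genes, Acadsb, Acadm and Eci2, and the highest mutant lay below the lowest control for 2, Bdh1 and Hadh. These are 9.38% and 6.25% of the 32 genes, where 12.9% and 8.26% of all tested genes separated in these directions. Acadsb, Acadm, Eci2 and Acaa2 had an unadjusted p under 0.05 in the higher direction (4 genes) and Bdh1 and Hadh in the lower (2 genes). The shares over all tested genes at that limit were 15.9% and 8.5%.

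The carnitine shuttle brings long chains into mitochondria, and none of its 8 genes passed the test. Cpt1a is the widely expressed enzyme that binds long chains to carnitine at the outer membrane, the step that malonyl-CoA inhibits. It measured 17.5, 13.9, 16.9 and 17.7 FPKM in controls 1 to 4, and 24.1, 15.4 and 19.3 FPKM in mutants 1 to 3. Mutant 2 fell among the controls while mutants 1 and 3 lay above all of them, with a log2 fold change of 0.22 (SE 0.146, adjusted p = 0.379). Cpt1b, the isoform of muscle, was lower in level, at 4.91, 3.76, 7.90 and 6.32 FPKM in controls and 10.95, 4.49 and 7.99 FPKM in mutants. On the log2 scale its standard error, 0.298, was the largest of the shuttle (log2 fold change 0.38, 95% interval -0.29 to 1.06, adjusted p = 0.459). The sample with the muscle RNA, mutant 2, had the lowest Cpt1b FPKM of the mutants, as for 28 of the 32 genes. The part of muscle RNA in Cpt1b was not tested. The Cpt1b model lies inside that of Chkb on the same strand, so reads of the pair can be split uncertainly, and Chkb had a log2 fold change of 0.01.

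Cpt1c is the isoform of neurons and sits in the endoplasmic reticulum. Its level was 12.04, 12.3, 13.3 and 13.3 FPKM in controls and 14.3, 11.97 and 12.9 FPKM in mutants, with overlapping groups (log2 fold change 0.03, and -0.04 with normalized counts, adjusted p = 0.848). Cpt2, which returns the chain to CoA at the inner membrane, measured 22.6, 24.0, 27.4 and 24.4 FPKM in controls and 33.3, 23.6 and 27.6 FPKM in mutants. Mutants 1 and 3 lay above all controls, mutant 3 by a narrow margin, and mutant 2 among them. The log2 fold change was 0.18 (SE 0.115, adjusted p = 0.358). Per length of the authors' gene models, mean control levels were 16.5 FPKM for Cpt1a, 12.7 for Cpt1c and 5.72 for Cpt1b. The ranges of Cpt1a and Cpt1c did not overlap in controls, and neither did those of Cpt1c and Cpt1b.

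Mlycd degrades malonyl-CoA and so sits between fatty acid synthesis and the shuttle. It had 8.198, 8.08, 8.202 and 7.74 FPKM in controls and 7.64, 8.09 and 8.42 FPKM in mutants. The means, 8.05 and 8.05 FPKM, were almost the same, and the 95% interval of the log2 fold change ran from -0.17 to 0.17 (adjusted p = 0.992). The translocase Slc25a20, the carnitine importer Slc22a5 and the acetyltransferase Crat had log2 fold changes of 0.09, 0.05 and 0.05, the last 2 below 0 with normalized counts, and adjusted p from 0.536 to 0.779. The median over the shuttle was 0.07, and -0.0040 with normalized counts, where that over all tested genes was 0.05 and -0.02.

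**Figure D2:**
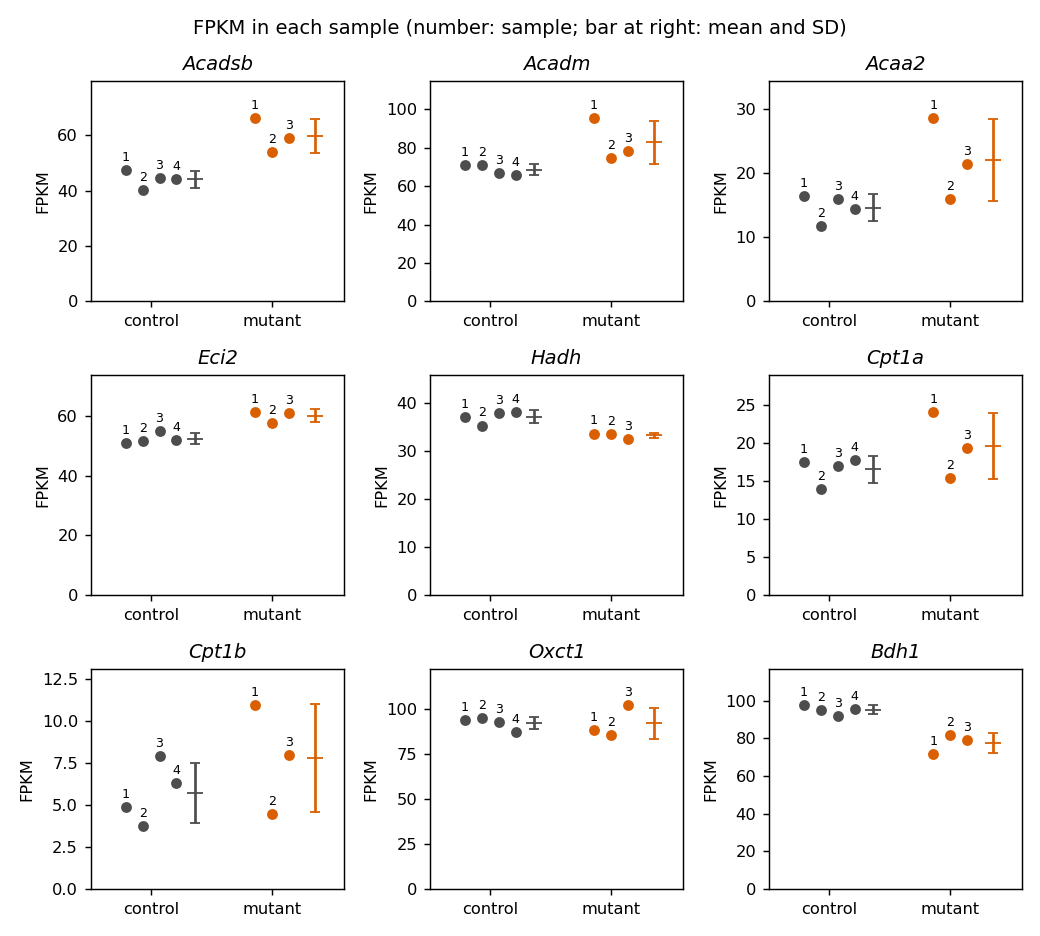
FPKM of 9 genes in every sample (points, numbered by sample), with mean and SD beside each group and axes from 0. Acadsb, Acadm and Eci2 have every mutant above every control and Bdh1 and Hadh every mutant below, while Acaa2, Cpt1a, Cpt1b and Oxct1 overlap.

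The acyl-CoA dehydrogenases take the first step of each cycle, and 1 of the 10 passed the test. Acadsb (ENSMUSG00000030861), which acts on short branched chains such as the intermediate of isoleucine breakdown, measured 47.5, 40.2, 44.4 and 44.2 FPKM in controls and 66.3, 54.1 and 59.2 FPKM in mutants. Every mutant was above every control, with mutant 1 highest and mutant 2 lowest. The means were 44.1 ± 2.99 FPKM (SD, n = 4) and 59.9 ± 6.17 FPKM (SD, n = 3), 136% of control, with a log2 fold change of 0.43 (SE 0.0843, 95% interval 0.24 to 0.63, adjusted p = 0.0392). With the replicate number as a block the adjusted p was 0.0251. The call was lost without a filter on low values (0.0834) and without the intensity trend in the variance (0.0725). It held without mutant 2 (adjusted p = 0.0293) and was lost on leaving out any other sample. The adjusted p was 0.0651, 0.0969, 0.122 and 0.0741 without controls 1 to 4, and 0.0707 and 0.103 without mutants 1 and 3. The log2 fold change stayed between 0.36 and 0.51 in these fits. Calls over all tested genes moved too, with 563 higher and 344 lower without mutant 2, and 2 and 4 without control 3.

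Acadsb lies on chromosome 7 (GRCm38, 131410601 to 131446211, plus strand), inside the deposited model of Fgfr2, which is drawn on the other strand. That model runs from 130162451 to 133123350 and overlaps many other genes, Oat and Htra1 among them, so the overlap is not particular to Acadsb. Fgfr2 measured between 98.3 and 106 FPKM in controls and between 99.96 and 116 in mutants (log2 fold change 0.11, adjusted p = 0.329). Just before the Acadsb start, only 79 bases separate it from the first exon of Ikzf5, which runs the other way. That stretch is shown because it is the whole interval before the start of the 1 gene that rose. It is RefSeq sequence of GRCm38.p6 at chr7:131410522-131410600, plus strand, with 60.8% G and C and no match to the motifs described further on, although the searched window around it holds GGGCGG outside these bases.
Acadsb: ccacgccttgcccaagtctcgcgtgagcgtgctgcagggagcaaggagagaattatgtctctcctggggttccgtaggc
Ikzf5, on the other side of the stretch, had a log2 fold change of -0.02 (adjusted p = 0.868).

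Acadm, the dehydrogenase of medium chains, was the most abundant of the group per length. It measured 70.8, 71.2, 67.0 and 65.6 FPKM in controls and 95.7, 74.5 and 78.3 FPKM in mutants. All mutants lay above all controls, with mutant 1 far above the other mutants, and the gene did not pass (log2 fold change 0.26, SE 0.0878, adjusted p = 0.125). Acadvl, the member named for very long chains, had 55.2, 51.1, 55.0 and 53.9 FPKM in controls and 62.6, 48.6 and 55.8 FPKM in mutants. The mutants spanned the controls on both sides (log2 fold change 0.04, and -0.04 with normalized counts, adjusted p = 0.797), and the gene overlaps Dvl2 on the other strand. Acad9, known both as a dehydrogenase and as an assembly factor of respiratory complex I, measured 33.4, 31.5, 33.1 and 35.3 FPKM in controls and 36.2, 35.0 and 36.0 FPKM in mutants. Control 4 reached into the mutants (log2 fold change 0.10, SE 0.0591, adjusted p = 0.335). Of the remaining 6, Acadl for long chains, Acads for short chains, Acad8 of valine breakdown, Acad10, Acad11 and Acad12, log2 fold changes ran from -0.05 to 0.08 with adjusted p from 0.497 to 0.939. The signs of Acadl, Acads, Acad8 and Acad12 turned under at least 1 other scaling.

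The start of Acadm carried the only match of a nuclear receptor motif among the promoter windows searched. RefSeq windows of 300 bases (250 before and 50 after a start) were present for 26 of the 32 genes, with 27 windows in all. They were searched on both strands for 7 motifs, of which 5 are forms of the AGGTCA site bound by receptors of fats and related ligands. AAGGTCA occurred in 1 of the 27 windows and in 4.72% of all 32851 windows, so 1 match does not set these windows apart. The other 4 overlap it or each other and occurred in none of the 27 windows. TCAAGGTCA was in 0.423% of all windows, AGGTCA repeated after 1 free base in 0.0396%, the looser repeat of AGGNCA after 1 free base in 0.381%, and AGGTCA followed after 1 free base by AGG in 0.658%. The stretch of Acadm is shown with that match in capitals, where AAGGTCA reads as TGACCTT on the printed strand at bases 2 to 8. It is chr3:153944644-153944893 of GRCm38.p6, minus strand.
Acadm: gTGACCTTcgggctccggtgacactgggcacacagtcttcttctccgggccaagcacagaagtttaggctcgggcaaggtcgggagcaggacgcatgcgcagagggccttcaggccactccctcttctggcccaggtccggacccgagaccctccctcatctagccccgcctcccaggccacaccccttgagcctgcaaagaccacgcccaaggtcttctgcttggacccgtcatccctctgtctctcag
A match is a run of letters and not a shown binding site. The general promoter motifs GGGCGG and CCAAT, added after the first search, occurred in 19 and 10 of the 27 windows, beside 35.7% and 37.4% of all windows. Hadha and Hadhb both count among the 19, although their windows share the bases between their starts.

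The steps from hydration to thiolysis had 5 genes, none of which passed. Acaa2, the thiolase of medium chains, had the highest log2 fold change of all 32 genes. It measured 16.4, 11.8, 16.0 and 14.4 FPKM in controls and 28.7, 15.9 and 21.5 FPKM in mutants. Mutants 1 and 3 lay above all controls and mutant 2 among them. The log2 fold change was 0.55 (SE 0.185, 95% interval 0.13 to 0.97, adjusted p = 0.126). With the replicate number as a block it was 0.54 with an adjusted p of 0.0293, which passes, in a fit where 6.42% of all tested genes were called higher and 1.94% lower. That fit called 2 of the 32 genes higher, Acadsb and Acaa2, and 0 lower. Without mutant 2 the adjusted p was 0.0394. Hadh, the hydroxyacyl-CoA dehydrogenase of shorter chains, measured 37.1, 35.4, 38.0 and 38.3 FPKM in controls and 33.7, 33.5 and 32.6 FPKM in mutants. All mutants lay below all controls, by a log2 fold change of -0.16 (SE 0.0560, adjusted p = 0.138). Echs1, the hydratase of short chains, had a log2 fold change of 0.03 (-0.05 with normalized counts, adjusted p = 0.794).

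Hadha and Hadhb encode the α and β subunits of the trifunctional protein, which carries out hydration, dehydrogenation and thiolysis of long chains. Hadha measured 80.6, 78.2, 78.2 and 76.9 FPKM in controls and 73.1, 70.1 and 78.3 FPKM in mutants. Mutants 1 and 2 were below all controls and mutant 3 among them (log2 fold change -0.09, adjusted p = 0.369). Hadhb measured 66.8, 63.0, 62.5 and 58.3 FPKM in controls and 67.8, 62.5 and 69.5 FPKM in mutants. Here mutants 1 and 3 were above all controls (log2 fold change 0.09, adjusted p = 0.447). Neither subunit passed. The ratio of Hadhb to Hadha within a sample was then examined, a choice made after these values were seen. It was 0.8293, 0.8057, 0.7992 and 0.7572 in controls and 0.9266, 0.8917 and 0.8882 in mutants, with every mutant above every control. The means were 0.80 ± 0.03 (SD, n = 4) and 0.90 ± 0.02 (SD, n = 3), a mutant mean 1.13 times the control mean. The exact two-sided permutation test over all 35 assignments of the genotypes gave p = 0.0571 when the smaller tail was doubled, the smallest value that this form allows with 4 against 3 samples, and p = 0.0286 when assignments were counted by the size of the difference. Since the ratio was picked after its values were seen, neither p is a call. Leaving out each sample in turn gave ratios of means between 1.11 and 1.146. Hadha overlaps Gareml on the other strand, at a level of 3.34 to 5.32 FPKM.

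**Figure D3:**
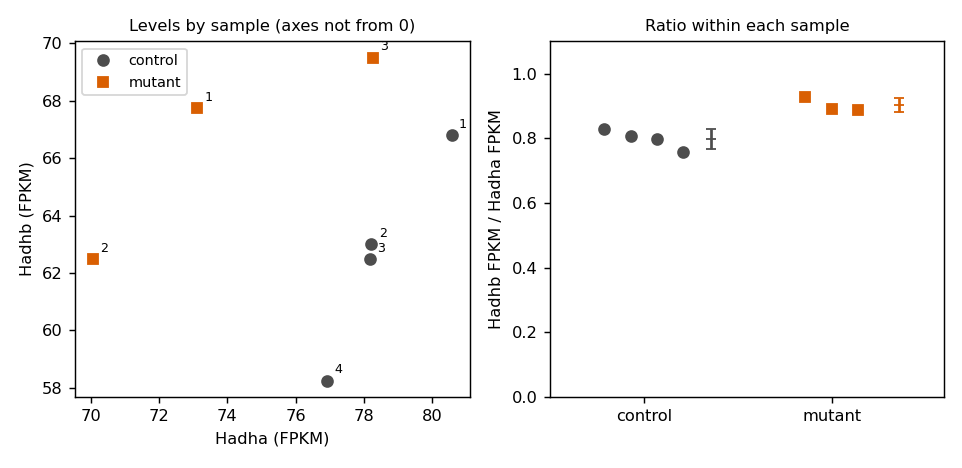
Left, Hadhb against Hadha in FPKM for each sample (numbered, axes not from 0); right, Hadhb FPKM divided by Hadha FPKM in each sample with mean and SD, axis from 0. The 3 mutants lie between 0.8882 and 0.9266 and the 4 controls between 0.7572 and 0.8293.

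The genes of both subunits stand head to head on chromosome 5 of GRCm38, Hadha from 30118304 to 30155162 on the minus strand and Hadhb from 30155248 to 30184593 on the plus strand. The 85 bases between the starts are all that lies between the pair, and they are shown because both subunits start from them. They are chr5:30155163-30155247 of GRCm38.p6 in the direction of Hadhb, with 69.4% G and C, and capitals mark GGGCGG at bases 1 to 6 and 66 to 71.
Hadha-Hadhb: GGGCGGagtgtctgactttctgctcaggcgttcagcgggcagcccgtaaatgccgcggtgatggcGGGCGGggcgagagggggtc

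Unsaturated chains need auxiliary enzymes, and none of these 3 passed. Eci2, an isomerase of double bonds found in mitochondria and peroxisomes, measured 51.0, 51.5, 55.0 and 52.1 FPKM in controls and 61.5, 57.6 and 61.1 FPKM in mutants. Every mutant exceeded every control by a small step, with a log2 fold change of 0.20 (SE 0.0563, adjusted p = 0.0926). The related isomerase Eci1 had a log2 fold change of 0.0046 (-0.07 with normalized counts, adjusted p = 0.976), and the reductase Decr1 had 0.17 (adjusted p = 0.406).

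The electron transfer flavoprotein and its oxidoreductase pass electrons on to ubiquinone. Etfdh, the oxidoreductase, measured 21.6, 18.0, 20.5 and 18.9 FPKM in controls and 23.1, 19.5 and 23.6 FPKM in mutants. Mutants 1 and 3 lay above all controls and mutant 2 inside them (log2 fold change 0.15, SE 0.0921, adjusted p = 0.334). The subunit genes Etfa and Etfb had log2 fold changes of 0.02 and 0.09 with adjusted p of 0.922 and 0.660, and Etfa fell on the other side of 0 with normalized counts (-0.06).

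The 3 genes of ketone use held the gene that fell, and Bdh1 and Oxct1 among them had the highest control levels of the 32. Bdh1 (ENSMUSG00000046598) converts β-hydroxybutyrate to acetoacetate. It measured 97.5, 95.3, 91.9 and 95.8 FPKM in controls and 71.9, 81.9 and 78.9 FPKM in mutants. All mutants lay below all controls, and within controls the values were close together. The means were 95.1 ± 2.38 FPKM (SD, n = 4) and 77.6 ± 5.15 FPKM (SD, n = 3), 81.6% of control, with a log2 fold change of -0.29 (SE 0.0615, 95% interval -0.43 to -0.16, adjusted p = 0.0460). The call was near its limit. It was lost with the replicate number as a block (adjusted p = 0.0643) and with quantile normalization (0.0514), without a filter (0.0708) and without the trend (0.0877). It held without mutant 2 (0.0359) but not without control 1, 2, 3 or 4 (0.0895, 0.111, 0.127 and 0.0914) or mutant 1 or 3 (0.0941 and 0.111). The log2 fold change stayed between -0.37 and -0.24 in all of these fits. Summed markers of mature oligodendrocytes and of progenitors were also lower in every mutant than in every control. Most of the progenitor sum was Gpr17 (212 to 276 FPKM in controls), while Pdgfra and Ptprz1 overlapped between the groups. The part of these markers in the Bdh1 difference was not tested.

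Bdh1 lies on chromosome 16 of GRCm38 (31422280 to 31458901, plus strand). The 233 bases before its start that no annotated exon covers are shown as the start region of the gene that fell. They are chr16:31422047-31422279 of GRCm38.p6, plus strand, with 49.8% G and C and none of the 7 motifs. RefSeq gives Bdh1 another start, not shown, whose window holds GGGCGG.
Bdh1: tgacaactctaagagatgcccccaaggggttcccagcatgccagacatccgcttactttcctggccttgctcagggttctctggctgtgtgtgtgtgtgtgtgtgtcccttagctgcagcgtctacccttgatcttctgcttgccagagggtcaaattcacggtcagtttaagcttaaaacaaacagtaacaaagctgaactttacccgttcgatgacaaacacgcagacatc

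The next enzymes of the route did not pass. Oxct1 activates acetoacetate with CoA from succinyl-CoA, the step that commits ketone bodies to oxidation. It measured 93.9, 95.2, 92.9 and 87.3 FPKM in controls and 88.6, 85.7 and 102 FPKM in mutants. The mutants spanned the controls, and the log2 fold change was -0.01 (95% interval -0.17 to 0.16, adjusted p = 0.970), with the opposite sign under quantile normalization (0.0014). Acat1 cleaves acetoacetyl-CoA to acetyl-CoA. Its level was 52.4, 51.7, 51.6 and 46.9 FPKM in controls and 49.7, 47.0 and 50.2 FPKM in mutants, with all mutants inside the range of the controls (log2 fold change -0.05, adjusted p = 0.672). In mean control level per length of the authors' gene models, Bdh1 at 95.1 FPKM and Oxct1 at 92.3 led the 32 genes and overlapped each other. Hadha at 78.5, Acadm at 68.7 and Hadhb at 62.6 followed. The control range of Hadha lay above that of Acadm. Within every control Acadm was above Hadhb, although their ranges overlapped. Acad12 at 3.62 and Acad10 at 1.28 were the lowest.

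The 3 mutants stood in an order that many of the genes shared on the FPKM scale. Mutant 2 had the lowest FPKM of the 3 mutants for 28 of the 32 genes (87.5%), beside 48.8% of all tested genes, and mutant 1 the highest for 21 (65.6%), beside 48.3%. This order depends on the scaling. With normalized counts mutant 2 was lowest for 17 of the 32, beside 28.6% of all tested genes, and mutant 1 for 12, beside 39.9%. On that scale mutant 1 was highest for 14, beside 34.4%. The mean of the 32 genes, as log2(FPKM + 0.5) minus the control mean, was 0.20, -0.06 and 0.12 in mutants 1, 2 and 3, where the median of all tested genes was 0.08, -0.0035 and 0.05. For the carnitine shuttle alone it was 0.33, -0.08 and 0.13, and in controls it ran from -0.11 to 0.11. Mutant 1 held the most meningeal fibroblast marker RNA, at 4851 FPKM summed over 8 markers, where the other 6 samples had 1911 to 2916, and mutant 2 held the muscle RNA. The part of either in this order was not tested. Against the control of the same number, 9 of the 32 genes were higher in all 3 pairs and 3 were lower in all 3, where 32.7% of all tested genes were higher and 17.4% lower in all pairs.

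**Figure D4:**
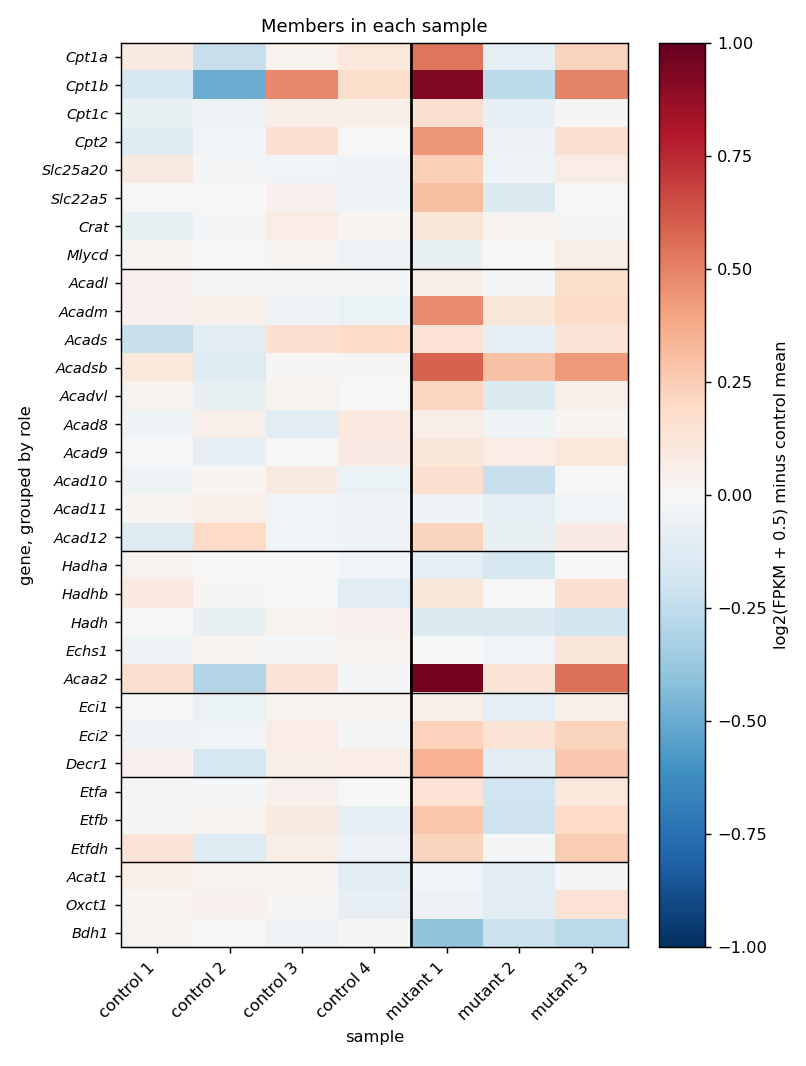
log2(FPKM + 0.5) minus the control mean for each of the 32 genes (rows, by role) in each of the 7 samples (columns). On this scale mutant 1 has the highest value of the mutants for 21 genes and mutant 2 the lowest for 28 (17 with normalized counts), and the Bdh1 row is below 0 in every mutant.

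The surrounding pathway was followed in 3 lists of 37 genes, of which 34 were tested, and 2 rose and 1 fell, where 1.26% of all tested genes were called higher and 1.36% lower. Oxct2a, Oxct2b and Pparg were under the minimum level. Among the 12 tested regulators of fatty acid oxidation and malonyl-CoA synthesis, 1 rose and none fell. All 12 log2 fold changes were above 0 on the FPKM scale, 11 with normalized counts and 10 with quantile normalization. Their median was 0.26 (0.18 and 0.23 under those scalings), where all tested genes had 0.05 (-0.02 and -0.02). The list was written with earlier results of these data known, so these values only describe it. Ppargc1a, a coactivator of genes of mitochondria and fatty acid oxidation, measured 4.46, 3.70, 4.19 and 4.45 FPKM in controls and 6.04, 5.73 and 7.21 FPKM in mutants. All mutants were above all controls (log2 fold change 0.54, SE 0.109, adjusted p = 0.0437). The call was kept without mutant 2 (0.0380) and lost without each other sample (0.0695 to 0.127, controls 1 to 4 and mutants 1 and 3) and with quantile normalization (0.0514).

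Acaca and Acacb make malonyl-CoA, the first for fatty acid synthesis in the cytosol and the second at the outer mitochondrial membrane. Acaca measured 71.1, 70.0, 73.7 and 67.2 FPKM in controls and 80.3, 89.5 and 82.9 FPKM in mutants (log2 fold change 0.25, adjusted p = 0.0625). Acacb was far lower, at 3.12, 2.80, 2.75 and 3.46 FPKM in controls and 4.35, 4.17 and 3.75 FPKM in mutants (log2 fold change 0.38, adjusted p = 0.0905). Both had every mutant above every control and neither passed. Over the 12 regulators, 5 separated in this direction (41.7%, beside 12.9% of all tested genes) and 0 in the other. The lists were written with earlier results of these data known, so these shares only describe them. For ketone body synthesis, transport and cytosolic use, 50% separated higher and 20% lower. For branched-chain and propionyl-CoA oxidation the shares were 25% and 16.7%, where 8.26% of all tested genes separated lower.

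Among 10 tested genes of ketone body synthesis, transport and cytosolic use, 1 rose and 1 fell, with a median log2 fold change of 0.26. Aacs activates acetoacetate in the cytosol, for lipid and sterol synthesis. It measured 83.8, 85.5, 96.7 and 96.1 FPKM in controls and 107.6, 119 and 120.2 FPKM in mutants. All mutants lay above all controls (log2 fold change 0.35, SE 0.0749, adjusted p = 0.0480), but the call was lost with normalized counts (0.103) and on leaving out any 1 of the 7 samples (0.0530 to 0.1399). Slc16a3, a monocarboxylate transporter best known for lactate export, measured 3.08, 3.78, 3.44 and 3.83 FPKM in controls and 2.24, 1.98 and 1.58 FPKM in mutants. All mutants lay below all controls (log2 fold change -0.74, SE 0.128, adjusted p = 0.0316), and the call was lost without control 1, 2, 3 or 4 or mutant 3 (0.0558, 0.0881, 0.108, 0.0665 and 0.0924). Without a filter or without the trend, neither these 2 genes nor Ppargc1a passed.

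Slc16a1 carries lactate and ketone bodies and is known in oligodendrocytes and vessels. It measured 64.2, 57.0, 54.9 and 60.9 FPKM in controls and 69.5, 70.5 and 69.2 FPKM in mutants, with separate groups (log2 fold change 0.24, adjusted p = 0.0854). Summed endothelial markers and summed astrocyte markers were also higher in every mutant than in every control, and those of mature oligodendrocytes lower. The part of any of these in the Slc16a1 difference was not tested. With the replicate number as a block, 5 genes of the 3 lists were called higher, adding Bdh2, Slc16a6 and Pccb to Ppargc1a and Aacs, and Slc16a3 stayed the 1 called lower. That fit called 6.42% of all tested genes higher and 1.94% lower.

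The 12 genes of branched-chain and propionyl-CoA oxidation, the routes that share Acadsb and Acad8, held no gene that passed. Their median log2 fold change was 0.09 (0.01 with either other scaling). At an unadjusted p under 0.05 there were 3 higher and 1 lower, where the shares over all tested genes were 15.9% and 8.5%. The smallest adjusted p was 0.0660, for Pccb, a subunit of propionyl-CoA carboxylase.

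**Figure D5:**
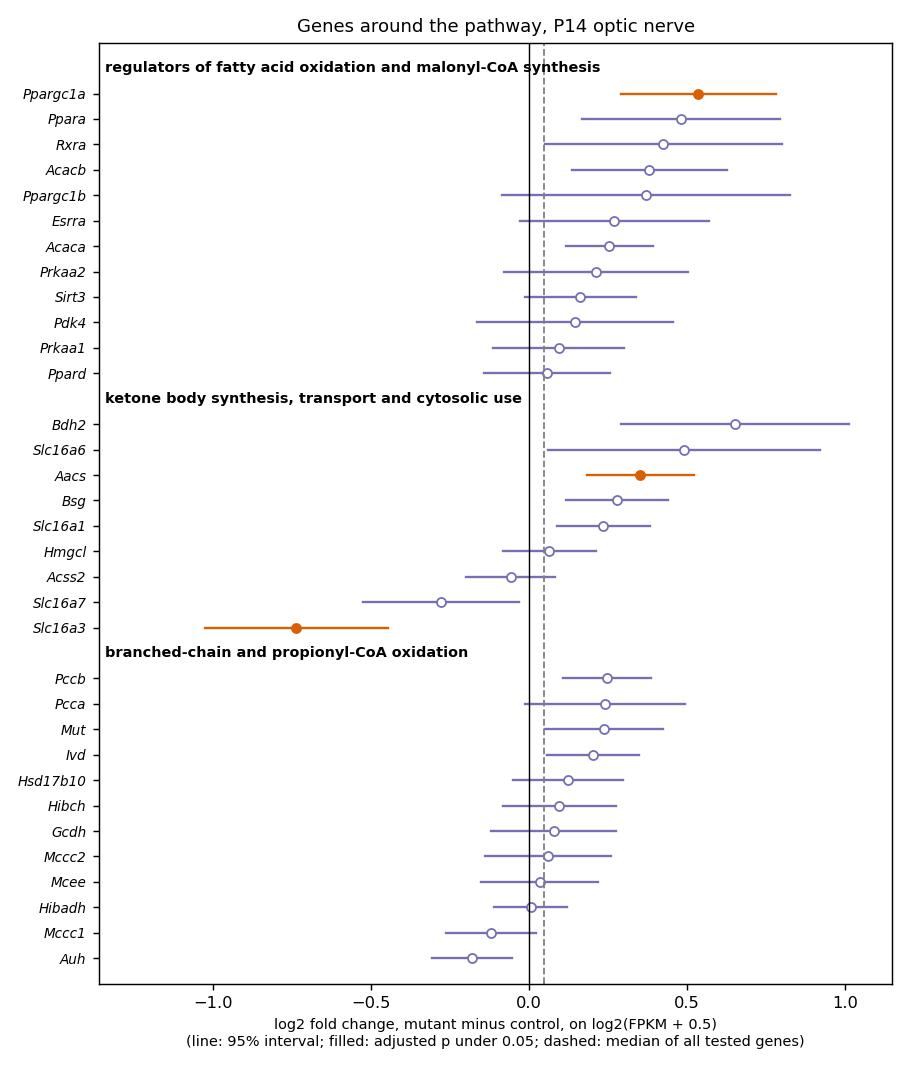
Log2 fold change (mutant minus control, on log2(FPKM + 0.5)) of 33 of the 34 tested genes of the 3 surrounding lists, with 95% intervals. Filled points passed an adjusted p of 0.05 (Ppargc1a at 0.54, Aacs at 0.35 and Slc16a3 at -0.74), and the dashed line is the median of all tested genes.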

How the data were processed

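RNA-seq libraries came from both optic nerves of each of 7 mice at P14, 4 control and 3 mutant, grouped by their labels. Reads were cleaned by the authors and aligned to GRCm38 (STAR 2.5.1b, Ensembl genes), and RSEM 1.2.22 estimated gene counts (versions from the submitters' processing notes). The deposited table holds a normalized count per gene, a signal made by the authors by dividing estimated counts by a size factor of unstated method, and FPKM, which the authors scaled by gene length and library size. It also holds the width of each gene model as another deposited column, and the authors' own comparison (fold changes and p-values), which was not used. The library kit marks strand, but whether counting used it is not given in the sources used here, so overlapping genes are named.

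The members, lists and named genes were chosen with earlier results of these data known. Values in every sample are given by 1 rule: members with an adjusted p under 0.05, the 8 with the smallest p, the main entry, chain and ketone enzymes, pathway genes with an adjusted p under 0.05, and 5 fixed pathway genes, of which 1 is not reported here. Other members are given by fold change. Bdh2, Slc16a6 and Pccb are named outside the rule, after their values were seen. Genes reaching 0.5 FPKM in 3 or more samples entered limma-trend (limma 3.58.1 in R 4.3.3) on log2(FPKM + 0.5), genotype as the only term, with Benjamini-Hochberg adjustment over all 13866 genes. Fold changes are on that scale, which understates low genes. The script was tested on simulated data.

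Replicate numbers were checked for pairing. Same-numbered control and mutant deviated together, with correlations across genes of 0.168, 0.409 and 0.270, all above the limit of 0.1. Control 4 with mutant 1, of different number, also exceeded the limit, at 0.205. The other pairs of different number ran from -0.353 to 0.0371. For mutant 1 the limit thus did not single out the same number. A fit blocked by number was kept as an alternative. Control 4 has no partner and adds nothing to that estimate. Other alternatives were normalized counts (pseudocount 37.4), quantile normalization, pseudocounts of 0.1 and 1, other filters, no trend and leaving out each sample. Depth was estimated by taking the most frequent low normalized count of a sample as 1 read. In that unit 73.3% to 79.3% of low values were whole reads within 0.02 reads. A count test planned for near-complete recovery was therefore not run.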

Additional observations from a re-analysis of the deposited data

Results flagged for a closer look

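Of 40 genes checked in the 4 control samples, 3 had 1 control far from the others by Dixon's test, which chance alone gives in about 1 group in 20. Slc25a20 was highest in control 1, at 13.33 FPKM with the nearest other control at 12.32 (gap over range 0.91). Decr1 was lowest in control 2, at 8.65 FPKM with the nearest at 10.13 (0.865). Acat1 was lowest in control 4, at 46.92 FPKM with the nearest at 51.58 (0.847). None of the 3 genes passed the test between genotypes in any of the settings tried.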

How the results depend on the processing

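Of the 32 genes, 17 kept their direction under every alternative, 12 turned under another scaling and 12 with 1 sample left out; the cause was not tested. Pseudocounts of 0.1 and 1 and an FPKM minimum of 1 changed no call among the 32. Without a filter and without the trend no member and no gene of the 3 lists was called (0 higher, 0 lower), and over all genes 33 were higher and 62 lower without a filter and 16 and 41 without the trend. Normalized counts gave 101 higher and 260 lower and quantile normalization 141 and 281, against 175 and 188. Quantile normalization called 1 member higher and 0 lower, and normalized counts and quantile normalization each called 1 list gene higher. The replicate block called 890 genes higher and 269 lower, 2 members higher and 0 lower, and 5 list genes higher, with Bdh1 lost and Acaa2 gained and no other call among the 32 changed. The count test planned for recovered reads was not run. The median of the members was -0.0159 with normalized counts and 0.0025 with quantile normalization, where that of all tested genes was -0.0233 and -0.0217. Leaving out 1 sample gave 1 to 563 genes higher and 4 to 344 lower, 0 to 2 members higher and 0 to 1 lower, 0 to 4 list genes higher and 0 to 1 lower (settings for the lists were added after the data were seen), and a member median of 0.0183 to 0.1293. By sample, all genes higher and lower numbered 19 and 41, 2 and 13, 2 and 4, and 55 and 62 without controls 1 to 4, and 103 and 83, 563 and 344, and 1 and 5 without mutants 1 to 3. Member calls were 2 higher and 1 lower without mutant 2 and 0 and 0 without any other sample, and list calls were 4 higher without mutant 2 and 0 higher without any other. Log2 fold changes that turned with normalized counts were Cpt1c -0.0440, Slc22a5 -0.0242, Crat -0.0291, Acadl -0.0041, Acads -0.0076, Acadvl -0.0352, Acad8 -0.0578, Echs1 -0.0452, Eci1 -0.0694 and Etfa -0.0583. With quantile normalization they were Cpt1c -0.0333, Acads -0.0228, Acad8 -0.0414, Acad12 -0.0353, Echs1 -0.0235, Eci1 -0.0571, Etfa -0.0416 and Oxct1 0.0014. With 1 sample left out, ranges that crossed 0 were Acad10 -0.1175 to 0.0835, Acad8 -0.0186 to 0.0509, Acads -0.0076 to 0.1394, Acadvl -0.0458 to 0.1359, Cpt1c -0.0347 to 0.0903, Echs1 -0.0147 to 0.0597, Eci1 -0.0190 to 0.0504, Etfa -0.0456 to 0.1264, Etfb -0.0040 to 0.2382, Mlycd -0.0329 to 0.0332, Oxct1 -0.0817 to 0.0438 and Slc22a5 -0.0718 to 0.1485.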
